A study of Mus musculus with 9 samples.

Results

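The proteasome genes were the protein-coding mouse genes whose symbol begins with Psma, Psmb, Psmc, Psmd, Psme, Psmf or Psmg, without the immunoproteasome subunits Psmb8 and Psmb9. The rule found 48 genes, of which 36 had a locus of their own among the 10307 named protein-coding genes with a locus in the deposited expression table; 7 more had only a partial locus and 5 had none. RNA was sequenced from 9 libraries in 3 groups of 3. SSC were spermatogonial stem cells, taken from the testes of postnatal mice and selected with magnetic beads for Gfra1, a receptor on their surface. SSCiPSC were induced pluripotent stem cells (iPSC) reprogrammed from SSC, and fiPSC were iPSC reprogrammed from male fetal fibroblasts; both were clonal lines purified for SSEA1, and the labels give stem cell medium with LIF and doxycycline. The methods of the study instead describe a stepwise withdrawal of doxycycline and a later passage for the cells used, so whether the transgenes were induced in these libraries is not known. All 3 groups, SSC included, carry the same 2 alleles per the labels: tm1(rtTA*M2)Jae at Gt(ROSA)26Sor, which encodes the doxycycline-responsive activator, and at Col1a1 the allele tm3 of Jae with tetO-driven Pou5f1 (Oct4), Sox2, Klf4 and Myc. The study calls the libraries biological samples, but the labels and methods do not say whether those of a group came from separate animals, lines or cultures, so p-values measure the spread between these libraries, which may be technical. In bulk RNA, a change in the share of a cell type and a change of RNA within each cell cannot be told apart.

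The proteasome degrades proteins that carry ubiquitin chains. Its core particle is a stack of rings, the outer ones made of alpha subunits that gate the entrance and the inner ones of beta subunits, some of which cut peptide bonds. A regulatory particle caps the core: its ATPases unfold the substrate and its non-ATPase subunits bind ubiquitin and remove it, while separate chaperones help to assemble core and cap, and other activators can take the cap's place. In embryonic stem cells high proteasome activity is known to accompany the undifferentiated state, and male germ cells are known for proteasome forms of their own.

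The values are FPKM, fragment counts scaled to the length of the locus and the size of the library. The SSC libraries were much shallower than the others: the FPKM steps of low loci gave about 1770000, 4620000 and 1390000 fragments for SSC 1 to 3. The SSCiPSC libraries held about 15900000, 13700000 and 15100000 fragments and the fiPSC libraries 13200000, 17500000 and 15500000. Gfra1, the receptor used for sorting, stood at 37.7, 34.1 and 23.9 FPKM in SSC and between 0.0185 and 0.171 FPKM in the 6 iPSC libraries. The pluripotency factor Nanog was listed at 0 in all 3 SSC libraries and lay between 270.2 and 483 FPKM in the iPSC libraries.

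Markers of other testis cells were present in SSC as well. The 8 of 11 Sertoli cell markers with a locus summed to 1199, 1223 and 978 FPKM in SSC, led by Clu at 713, 645 and 538 FPKM, and all 8 were above 0 there. In the iPSC libraries they summed to 175 to 309 FPKM, of which 162 to 296 FPKM came from the homeobox gene Rhox5, and Cst12 was at 0. The 3 of 7 Leydig cell markers summed to 160, 124 and 236 FPKM in SSC, led by Cyp11a1, and to at most 0.358 FPKM in iPSC, where Lhcgr was at 0. The 5 mast cell markers summed to 107, 425 and 1179 FPKM in SSC, led by Tpsab1, and to at most 0.0806 FPKM in iPSC. SSC 3 was also high in the 8 of 9 macrophage markers, which summed to 63.7, 27.3 and 231 FPKM in SSC and to 8.98 to 16.0 FPKM in iPSC, and in the 9 fibroblast markers, led by Col3a1, with 105, 93.8 and 298 FPKM in SSC and 13.1 to 46.0 FPKM in iPSC. Most of the macrophage sum in iPSC was Cd68, at 7.65 to 13.7 FPKM in iPSC against 3.51 to 15.8 FPKM in SSC. Of the 8 macrophage markers 7 lay below every SSC library in SSCiPSC and 6 in fiPSC. The 4 of 5 peritubular markers, led by Acta2, summed to 70.2 to 85.8 FPKM in SSC and 8.98 to 12.5 FPKM in iPSC. The sums of the 5 endothelial markers overlapped between SSC (55.7 to 114 FPKM) and iPSC (83.4 to 127 FPKM), but the iPSC sums were nearly all Pecam1, at 79.6 to 124.8 FPKM in iPSC against 26.6 to 54.6 FPKM in SSC. The other 4 lay below every SSC library in all iPSC libraries, and Emcn was at 0 there. Of 7 blood markers, Alas2 alone had a locus, at 3.89 to 13.7 FPKM in SSC and 2.43 to 4.90 FPKM in iPSC. The 13 of 14 germ line markers, led in SSC by Dazl, summed to 660, 808 and 541 FPKM in SSC and 289 to 489 FPKM in iPSC. Within that list 9 genes lay below all SSC libraries in SSCiPSC, Dazl among them at 15.3 to 42.3 FPKM in iPSC against 174 to 263 FPKM in SSC, while 3 lay above, such as Etv5 at 94.0 to 142.6 FPKM in iPSC against 28.9 to 38.8 FPKM in SSC. Every SSC against iPSC difference in the proteasome genes moved together with this mix of cells and with depth, and their part in the results was not tested.

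Proteasome transcripts were more abundant in SSCiPSC than in SSC. The 36 genes summed to 2304, 2733 and 2229 FPKM in SSC and to 4525, 4799 and 4299 FPKM in SSCiPSC, without overlap. The FPKM of all loci also summed to more in every SSCiPSC library than in any SSC library. Part of the rise in the sum therefore went with a larger total. The share of the 36 genes in the FPKM of all loci was 0.265, 0.325 and 0.257% in SSC against 0.333, 0.382 and 0.371% in SSCiPSC. Their share of the FPKM of all named genes was 1.10, 1.19 and 1.03% in SSC against 1.40, 1.41 and 1.34% in SSCiPSC. With limma on log2(FPKM + 1) and Benjamini-Hochberg adjustment over all loci, 28 of the 36 passed an adjusted p of 0.05 with a higher level in SSCiPSC and none with a lower one (29 and none at an unadjusted p under 0.05, which 56.4% of all loci reached in either direction). Among all 36544 loci tested, 26.2% were called higher and 24.1% lower, and among 9150 named genes 34.1% and 28.9%. The median log2 fold change of the 36 genes was 1.05, against 0.11 over all loci and 0.14 over named genes. In 30 of the 36 genes all 3 SSCiPSC libraries lay above all 3 SSC libraries, which was so for 31.1% of all loci and 40.1% of named genes; a difference of 3 against 3 libraries cannot reach an exact two-sided permutation p below 0.1.

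**Figure D1:**
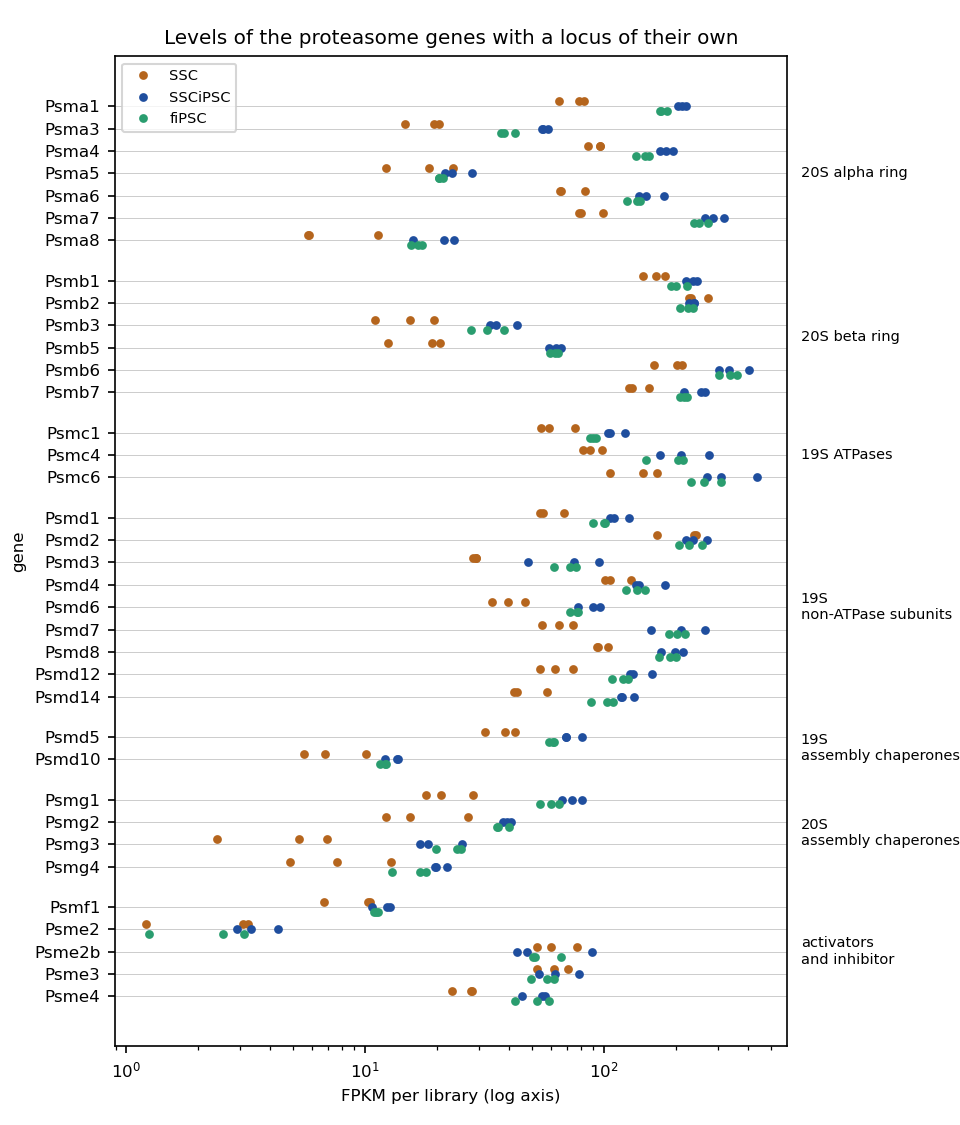
Level of each proteasome gene in each library, as FPKM on a log scale, with the genes grouped by role and each point 1 library coloured by group (SSC, SSCiPSC, fiPSC). Psma7, Psmb5, Psmd7 and Psmg1 have both iPSC groups above every SSC library, while the 3 groups lie on top of each other in Psmb2, Psmd2 and Psme3.

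Among named genes with a high mean level, more were called higher than lower in SSCiPSC. Of the 3369 named genes with a mean of at least 20 FPKM, 55.1% were called higher and 14.8% lower, with a median log2 fold change of 0.70. The proteasome genes at that level numbered 30, of which 24 were called higher, with a median of 1.05. Both sets were picked by a mean over the 9 libraries, most of them iPSC. Genes high in iPSC entered more readily, which tilts these shares and medians upward. How the libraries were scaled mattered as well. After quantile normalization, which gives every library one common distribution of values, 15 of the 36 genes were higher and 5 were lower, with a median of 0.38. Under the same normalization 27.6% of named genes were higher and 32.0% lower, with a median of -0.02. Of named genes of at least 20 FPKM 36.5% were higher and 26.3% lower, with a median of 0.19, beside 41.7% of the 36 genes higher. These last 2 shares are not like for like, because some of the 36 genes lie below 20 FPKM and the cut favours genes high in iPSC. The 15 genes, all of them among the 28, were Psma1, Psma3, Psma7, Psma8, Psmb3, Psmb5, Psmd3, Psmd6, Psmd7, Psmd10, Psmd14, Psme4, Psmg1, Psmg3 and Psmg4; the 5 lower genes were Psmb1, Psmb2, Psmd2, Psmd4 and Psme3. After median-ratio scaling, which moved the median of all loci from 0.11 to 0.28, all 28 genes were higher together with 1 more, none was lower, and the median was 1.26 (39.0% of named genes higher and 24.6% lower).

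**Figure D2:**
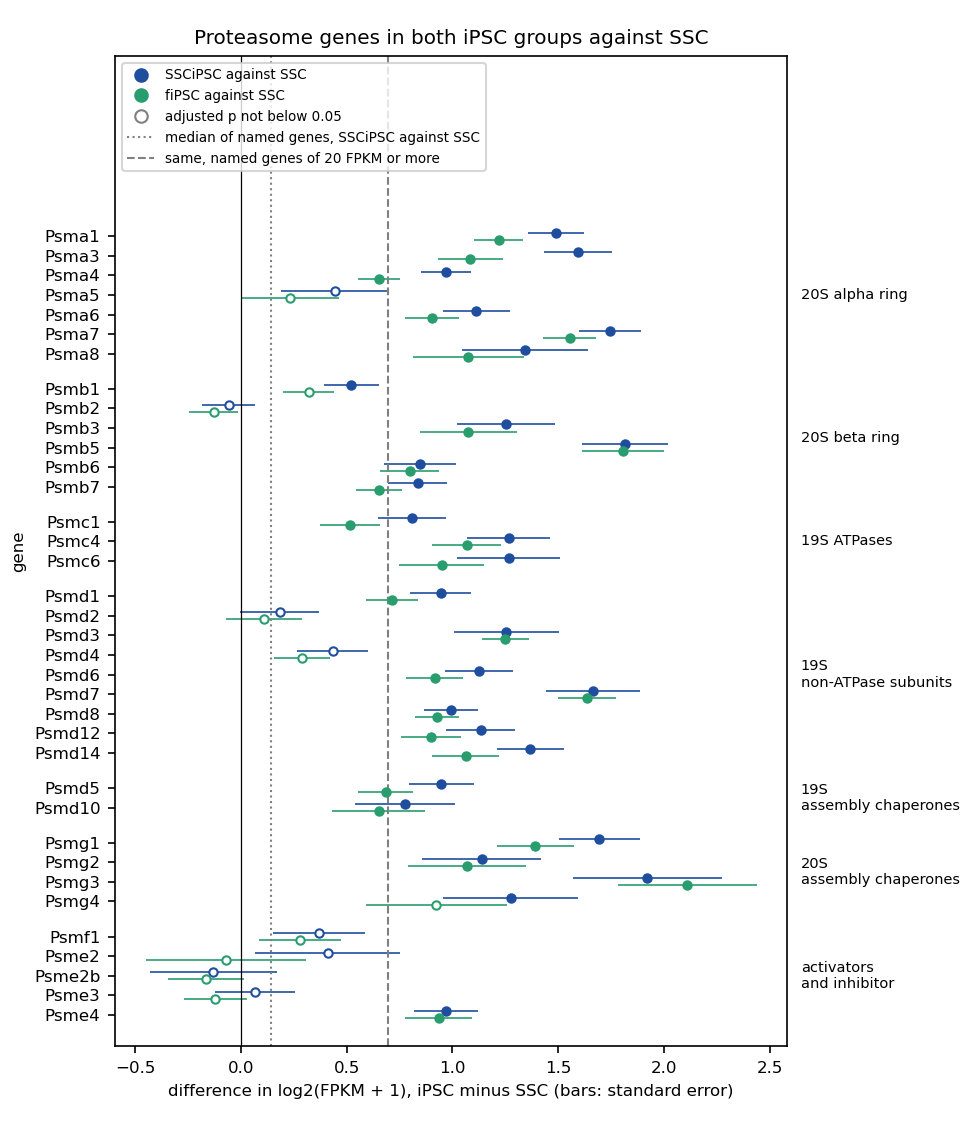
Log2 fold change of each proteasome gene in SSCiPSC against SSC and in fiPSC against SSC, on the log2(FPKM + 1) scale with its standard error, by role, with open points for genes whose adjusted p was not below 0.05 and vertical lines at the medians of named genes. Points lie mostly to the right of 0 in the rings, the cap and the chaperones, up to 2.11 in Psmg3, and scatter around 0 among the activators.

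Most genes of the alpha ring were higher in SSCiPSC. Of its 8 genes 7 had their own locus, and 6 of these were called higher in SSCiPSC, with a median log2 fold change of 1.34 (4 after quantile normalization, median 0.57). For this and the roles below, 34.1% of named genes were called higher and 28.9% lower. After quantile normalization 27.6% were higher and 32.0% lower. Psma7 (chr2:180036374-180042433), the alpha subunit with the highest mean over the 9 libraries, though not within SSC, stood at 78.6, 99.3 and 80.2 FPKM in SSC, 318, 287 and 264 FPKM in SSCiPSC and 249, 238 and 274 FPKM in fiPSC. The 2 iPSC groups lay far above SSC without overlap, with a 3.37-fold ratio of means and a log2 fold change of 1.74 ± 0.14 (SE, n = 3 per group; limma, adjusted p = 0.00025) in SSCiPSC. Psma8, known as the alpha subunit that replaces Psma7 in meiotic male germ cells, was far less abundant, at 5.84, 11.4 and 5.74 FPKM in SSC, 23.5, 15.9 and 21.4 FPKM in SSCiPSC and 15.6, 17.2 and 16.6 FPKM in fiPSC. It too was higher in both iPSC groups, by 1.34 ± 0.30 on the log2 scale in SSCiPSC (limma, adjusted p = 0.00971), with no overlap, and the coding sequences of Psma7 and Psma8 were 74.9% identical. Psma1, Psma3, Psma4 and Psma6 rose by 0.97 to 1.59 on the log2 scale. Psma5, of whose 7 loci only that with the highest mean is given, was the exception, with 12.2, 18.5 and 23.3 FPKM in SSC, 23.2, 28.1 and 21.5 FPKM in SSCiPSC and 21.1, 20.4 and 20.5 FPKM in fiPSC. Both iPSC groups overlapped with SSC, while fiPSC lay just below SSCiPSC, and the log2 fold change of 0.45 ± 0.25 in SSCiPSC against SSC did not pass the test (limma, adjusted p = 0.191).

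The beta ring holds the sites that cut proteins. Of its 7 genes 6 had a locus, 5 of these were higher in SSCiPSC and the median log2 fold change was 0.84; after quantile normalization 2 were higher, 2 were lower and the median turned to -0.29. Psmb5, which carries the chymotrypsin-like site, stood at 12.5, 19.1 and 20.5 FPKM in SSC, 66.1, 62.7 and 59.0 FPKM in SSCiPSC and 59.6, 62.2 and 64.4 FPKM in fiPSC. That was the largest change of the ring, 1.82 ± 0.20 on the log2 scale in SSCiPSC (limma, adjusted p = 0.000654), and it held under both other scalings. Psmb6, with the caspase-like site and the highest mean over the 9 libraries of all 36 genes, stood at 162, 213 and 202 FPKM in SSC, 333, 406 and 302 FPKM in SSCiPSC and 337, 302 and 362 FPKM in fiPSC. Within SSC the means of Psmb2 and Psmd2 were higher than that of Psmb6. Its change of 0.85 ± 0.17 (limma, adjusted p = 0.00667) turned to -0.32 after quantile normalization. Psmb7, with the trypsin-like site, stood at 131, 154 and 127 FPKM in SSC, 264, 256 and 217 FPKM in SSCiPSC and 217, 208 and 222 FPKM in fiPSC, without overlap with SSC, and its change of 0.84 ± 0.14 (limma, adjusted p = 0.00317) turned to -0.26.

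Among the structural beta subunits, Psmb3 rose by 1.25 and Psmb1 by 0.52 ± 0.13 (limma, adjusted p = 0.0151) on the log2 scale, and the value of Psmb1 turned to -0.58 after quantile normalization. Psmb1 also lost its call without SSC replicate 3, at 0.44 with an adjusted p of 0.0515 (limma). Psmb2, also structural, measured 232, 274 and 228 FPKM in SSC, 238, 237 and 227 FPKM in SSCiPSC and 225, 208 and 236 FPKM in fiPSC, and the 3 groups overlapped. Its log2 fold change was -0.06 ± 0.12 in SSCiPSC (limma, adjusted p = 0.728), -1.25 after quantile normalization (adjusted p = 0.000377) and 0.15 after median-ratio scaling.

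The ATPases of the cap form the ring that unfolds substrates. Of the 6 genes, Psmc1, Psmc4 and Psmc6 had their own locus and all 3 were higher in SSCiPSC, with log2 fold changes of 0.81 to 1.27. None of the 3 passed after quantile normalization, with a median of 0.16. Psmc6, the most abundant, stood at 146, 167 and 106 FPKM in SSC, 436, 271 and 308 FPKM in SSCiPSC and 263, 308 and 231 FPKM in fiPSC. The iPSC libraries varied widely but stayed above SSC, with a change of 1.27 ± 0.24 (limma, adjusted p = 0.00546).

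Of the 11 non-ATPase subunits of the cap, 9 had a locus, 7 were higher in SSCiPSC and the median log2 fold change was 1.12 (4 higher and 2 lower after quantile normalization, median 0.32). Psmd7, partner of the deubiquitinase Psmd14, changed most, from 55.0, 64.8 and 74.3 FPKM in SSC to 157, 209.8 and 265 FPKM in SSCiPSC and 202, 218 and 187 FPKM in fiPSC. The lowest iPSC library was above the highest SSC library, and the change was 1.66 ± 0.22 (limma, adjusted p = 0.00123). Psmd14, which cuts ubiquitin chains off the substrate, stood at 42.0, 57.8 and 43.0 FPKM in SSC, 119, 134 and 118 FPKM in SSCiPSC and 103, 88.2 and 109 FPKM in fiPSC, also without overlap, a change of 1.37 ± 0.16 (limma, adjusted p = 0.000757). The other 5 genes that passed were Psmd1, Psmd3, Psmd6, Psmd8 and Psmd12, scaffold subunits.

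The 2 subunits that did not pass were both abundant. Psmd2, the largest scaffold subunit with Psmd1, stood at 242, 239 and 166 FPKM in SSC, 220.1, 271 and 237 FPKM in SSCiPSC and 227, 207 and 258 FPKM in fiPSC, overlapping throughout. Its log2 fold change of 0.18 ± 0.19 (limma, adjusted p = 0.454) turned to -0.99 after quantile normalization. Psmd4, a ubiquitin receptor, stood at 106, 129 and 101 FPKM in SSC, 140.5, 181 and 136 FPKM in SSCiPSC and 137, 124 and 149 FPKM in fiPSC. SSCiPSC lay above SSC in every library, by 0.43 ± 0.17, which missed the threshold (limma, adjusted p = 0.0707), passed after median-ratio scaling at 0.64 and turned to -0.55 after quantile normalization.

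The assembly chaperones of the core are Psmg1 with Psmg2 and Psmg3 with Psmg4, which act as pairs on the alpha ring. All 4 were higher in SSCiPSC, with the highest median of any role, 1.48; after quantile normalization 3 were higher and the median was 1.25. Psmg1 stood at 28.3, 20.8 and 18.0 FPKM in SSC, 73.2, 80.7 and 67.0 FPKM in SSCiPSC and 60.2, 53.9 and 64.6 FPKM in fiPSC, a change of 1.69 ± 0.19 (limma, adjusted p = 0.000671). Psmg3, at 5.29, 6.92 and 2.40 FPKM in SSC, 16.9, 25.5 and 18.3 FPKM in SSCiPSC and 24.2, 19.7 and 25.1 FPKM in fiPSC, showed the largest change of all 36 genes, 1.92 ± 0.35 (limma, adjusted p = 0.00456). Neither gene overlapped with SSC. Psmg2 rose by 1.14 and Psmg4 by 1.27, and each of these 2 calls was lost at an adjusted p of 0.0517 to 0.0595 (limma) when 1 of 2 SSCiPSC libraries was left out (replicates 1 or 2 for Psmg2, 2 or 3 for Psmg4).

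Of the 3 chaperones of the cap, Psmd5 and Psmd10 had a locus and both were higher in SSCiPSC, with a median log2 fold change of 0.86; after quantile normalization Psmd10 alone passed and the median was 0.59. Psmd5 stood at 38.6, 42.5 and 31.7 FPKM in SSC, 80.7, 69.1 and 69.4 FPKM in SSCiPSC and 58.8, 61.5 and 61.4 FPKM in fiPSC, a change of 0.95 ± 0.15 (limma, adjusted p = 0.00273). Psmd10, or gankyrin, was sparse, at 5.53, 10.0 and 6.77 FPKM in SSC, 13.8, 13.6 and 12.1 FPKM in SSCiPSC and 12.2, 11.5 and 12.1 FPKM in fiPSC. Its change of 0.78 ± 0.24 (limma, adjusted p = 0.0334) fell below the threshold in 5 of the 6 fits with 1 library left out, at adjusted p of 0.0766 to 0.102; without SSC replicate 2 it was kept.

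Of 5 activator and inhibitor genes with a locus, 1 was higher in SSCiPSC and 4 did not pass, with a median log2 fold change of 0.37, and in 2 of the 5 every SSCiPSC library lay above every SSC library, beside 34.1% of named genes called higher and 40.1% without overlap. Whether they differed from the other roles was not tested. The gene that rose was Psme4, the PA200 activator, known for histone degradation in male germ cells. It stood at 23.0, 27.6 and 28.0 FPKM in SSC, 45.4, 56.7 and 54.7 FPKM in SSCiPSC and 52.3, 42.5 and 59.1 FPKM in fiPSC, so both iPSC groups were above SSC, by 0.97 ± 0.15 in SSCiPSC (limma, adjusted p = 0.00235). Psme3, which encodes the nuclear activator PA28 gamma, stood at 61.5, 70.6 and 52.3 FPKM in SSC, 53.6, 78.4 and 62.1 FPKM in SSCiPSC and 57.9, 49.2 and 61.8 FPKM in fiPSC. Its groups overlapped, at 0.07 ± 0.19 on the log2 scale (limma, adjusted p = 0.8) and -0.64 after quantile normalization. Psmf1, the inhibitor PI31, was low, at 6.70, 10.2 and 10.4 FPKM in SSC, 10.7, 12.7 and 12.4 FPKM in SSCiPSC and 11.1, 11.3 and 10.9 FPKM in fiPSC. All iPSC libraries were above SSC, yet the change of 0.37 ± 0.22 did not pass (limma, adjusted p = 0.204).

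Psme2 encodes PA28 beta, a subunit of the interferon-induced activator, and Psme2b is a gene of near-identical coding sequence on another chromosome. Psme2 stood at 1.20, 3.22 and 3.08 FPKM in SSC, 4.30, 2.90 and 3.31 FPKM in SSCiPSC and 2.55, 3.11 and 1.24 FPKM in fiPSC, with overlap (0.41 ± 0.34 in SSCiPSC, limma, adjusted p = 0.361). Psme2b was more than 10 times as abundant, at 52.4, 76.8 and 60.2 FPKM in SSC, 88.9, 43.4 and 47.6 FPKM in SSCiPSC and 51.3, 66.0 and 50.5 FPKM in fiPSC, and its groups overlapped as well (-0.13 ± 0.30 in SSCiPSC, limma, adjusted p = 0.748). The 2 coding sequences matched at 99.3%, with 5 mismatches in 717 bases. The stretch of coding positions 487 to 546 (GRCm38, from the genes at chr14:55587441-55591113 and chr11:48945354-48946190, both on the minus strand) is shown because it holds 3 of the 5 mismatches, in capitals: C489T, C519T and C543T, counted from the first coding base.
Psme2: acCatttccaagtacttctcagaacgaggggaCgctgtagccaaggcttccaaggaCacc
Psme2b: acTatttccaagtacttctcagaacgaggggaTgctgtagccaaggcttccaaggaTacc
Fragments between these positions are shared by both genes, so their separate levels are uncertain. Their FPKM sum is not free of the split either, because FPKM is scaled to locus length and the 2 loci differ in length.

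Several subunits have processed pseudogenes, intron-less copies, that have a locus with values in the deposited expression table. Here a copy matched at least 90% of the bases over at least 50% of the coding sequence. Gm8394 (chr10:85313488-85314439), 98.9% identical to Psma5, stood at 45.8, 48.8 and 32.1 FPKM in SSC, 88.6, 92.3 and 90.2 FPKM in SSCiPSC and 77.2, 70.9 and 78.3 FPKM in fiPSC. In every library that was above the locus kept for Psma5. Since 7 loci were tied to Psma5 by position and only that of the highest mean was kept, the level of the whole gene is not known. Gm8394 was higher in SSCiPSC by 1.10 ± 0.18 (limma, adjusted p = 0.00272), although the kept locus of Psma5 did not pass. Coding positions 589 to 648 are shown because they hold 2 of the 8 mismatches in 723 bases, C604T and G634A, in capitals.
Psma5: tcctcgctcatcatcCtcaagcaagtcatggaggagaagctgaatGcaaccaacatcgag
Gm8394: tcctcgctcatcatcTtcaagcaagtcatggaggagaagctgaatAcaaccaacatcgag
With Gm8394 and the second copy that has a locus, Gm12989, added, the FPKM sums for Psma5 were 72.7, 89.7 and 73.4 in SSC, 153, 164 and 148 in SSCiPSC and 136, 123 and 136 in fiPSC. The iPSC groups then no longer overlapped with SSC. On the log2(FPKM + 1) scale the mean of these sums was higher by 0.97 in SSCiPSC than in SSC.

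Copies with a locus were also found for Psmb1, Psmb3, Psmb5, Psmc1 and Psmd11. The Psmb3 copy Gm4950, at 103, 125 and 62.7 FPKM in SSC, 271, 324 and 263 FPKM in SSCiPSC and 246, 211 and 259 FPKM in fiPSC, exceeded the locus kept for Psmb3 in every library. That locus, the highest of 5 tied to Psmb3, measured 15.4, 19.5 and 11.0 FPKM in SSC against 35.3, 43.1 and 33.2 FPKM in SSCiPSC. Both rose, Gm4950 by 1.60 ± 0.26 (limma, adjusted p = 0.00288). The Psmb5 copy Gm3375 rose by 1.45 and the Psmc1 copy Gm9575 by 0.51. With copies added, the sums were compared between SSCiPSC and SSC as the difference of their means on the log2(FPKM + 1) scale. This difference was 1.56 for Psmb3, 1.71 for Psmb5 and 0.73 for Psmc1, and -0.10 for the pair Psme2 and Psme2b. Reads of a gene and its copy cannot be told apart where the sequences match, so the split between them is uncertain. Of the 29 members without such a copy, 24 were higher in SSCiPSC and none was lower, beside 34.1% of named genes called higher and 28.9% lower.

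**Figure D3:**
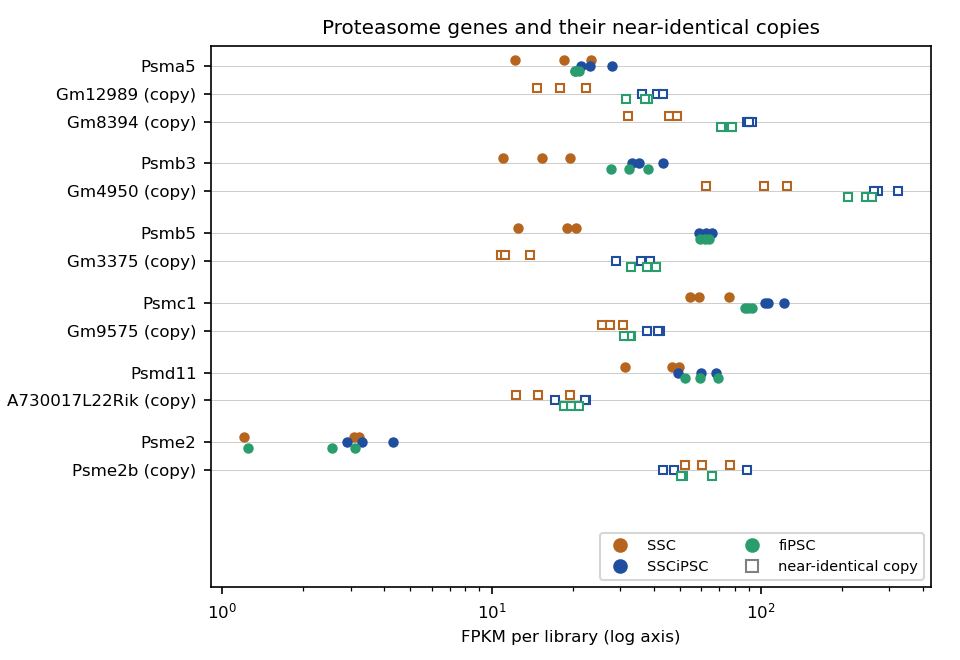
FPKM in each library, on a log scale, of proteasome genes and of their near-identical copies that have a locus, coloured by group, with filled circles for genes and open squares for copies. Gm8394 and Gm4950 lie above the loci kept for their parent genes Psma5 and Psmb3 in all 9 libraries, and Psme2b lies above Psme2.

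A further 7 genes were covered only in part by their locus, or shared it with sequence outside the gene, and are kept apart from the 36. Of these, 4 were higher in SSCiPSC and 3 did not pass, beside 34.1% of named genes called higher. Psma2, an alpha subunit, stood at 93.7, 141 and 121 FPKM in SSC, 255, 278 and 224 FPKM in SSCiPSC and 225, 188 and 238 FPKM in fiPSC, and the ATPases Psmc2 and Psmc3 rose by 1.06 and 0.90 on the log2 scale. Psmc3ip, which matches the rule by its symbol but encodes the HOP2 partner of the meiotic recombinases, stood at 4.93, 7.46 and 3.27 FPKM in SSC, 19.6, 20.9 and 18.4 FPKM in SSCiPSC and 16.4, 15.1 and 16.4 FPKM in fiPSC (1.78 ± 0.27, limma, adjusted p = 0.00219). The subunit gene Psmd11 stood at 49.5, 46.9 and 31.2 FPKM in SSC and 49.4, 59.9 and 68.1 FPKM in SSCiPSC, with 69.5, 59.3 and 52.4 FPKM in fiPSC (0.48 ± 0.22, limma, adjusted p = 0.114). The chaperone gene Psmd9 stood at 16.3, 18.7 and 27.6 FPKM in SSC and 14.1, 17.2 and 14.5 FPKM in SSCiPSC, with 15.6, 13.7 and 17.9 FPKM in fiPSC (-0.40 ± 0.22, adjusted p = 0.185). Psme1, for PA28 alpha, stood at 44.0, 52.2 and 55.5 FPKM in SSC and 85.7, 43.4 and 54.6 FPKM in SSCiPSC, with 54.0, 77.8 and 47.8 FPKM in fiPSC (0.22 ± 0.26, adjusted p = 0.517). These last 3 overlapped between SSC and SSCiPSC. Psmb4, Psmb10, Psmb11, Psmc5 and Psmd13 had no locus of their own, so the thymus and immune beta subunits Psmb11 and Psmb10 have no value here.

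The comparison of fiPSC with SSC shares the 3 SSC libraries with the comparison of SSCiPSC with SSC, so the values stand side by side and are not independent. In fiPSC 26 of the 36 genes were called higher and none lower (28 and none at an unadjusted p under 0.05, which 57.6% of all loci reached), where 28.0% of 38007 loci were called higher and 23.7% lower, and 35.2% and 30.2% of 9242 named genes. The median log2 fold change was 0.91, against 0.13 over named genes and 0.56 over named genes of at least 20 FPKM. In 29 genes every fiPSC library was above every SSC library, against 33.1% of all loci and 41.1% of named genes. Quantile normalization left 13 genes higher, all among the 26, and 7 lower, namely Psmb1, Psmb2, Psmb7, Psmd2, Psmd4, Psme2b and Psme3, with a median of 0.24. Under it 29.6% of named genes were higher and 33.9% lower, beside 36.1% and 19.4% of the 36 genes. Of named genes of at least 20 FPKM 38.5% were higher and 29.3% lower. That class was picked with the iPSC libraries included and leaves out some of the 36 genes, so the shares are not like for like. After median-ratio scaling 29 were higher and none was lower, with a median of 1.07 (39.5% of named genes higher and 26.5% lower). Psmg3 changed most, by 2.11 ± 0.33 (limma, adjusted p = 0.00246), followed by Psmb5 at 1.81 ± 0.19 (adjusted p = 0.000552), Psmd7 at 1.64 ± 0.14 (adjusted p = 0.000247) and Psma7 at 1.55 ± 0.13 (adjusted p = 0.000227). Psmb1, at 0.32 ± 0.12 (adjusted p = 0.0654), and Psmg4, at 0.92 ± 0.33 (adjusted p = 0.0576), were higher in SSCiPSC but did not pass in fiPSC, and neither passed the direct comparison of the iPSC groups.

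By role, 6 of 7 alpha genes, 4 of 6 beta genes, 3 of 3 ATPases, 7 of 9 non-ATPase subunits, 2 of 2 cap chaperones, 3 of 4 core chaperones and 1 of 5 activators were higher in fiPSC than in SSC. The medians were 1.08, 0.73, 0.95, 0.92, 0.67, 1.23 and -0.07 in the same order. Of named genes 35.2% were called higher in fiPSC and 30.2% lower. After quantile normalization 4 alpha genes, 2 beta genes, 4 non-ATPase subunits, 2 core chaperones and 1 activator were higher, no ATPase or cap chaperone was, and 3 beta genes, 2 non-ATPase subunits and 2 activators were lower. The medians were then 0.44, -0.29, -0.04, 0.21, 0.48, 1.03 and 0.03, in the order of roles used above. With that normalization 29.6% of named genes were higher and 33.9% lower. As in SSCiPSC, the activator called was Psme4, at 0.93 ± 0.16 (limma, adjusted p = 0.00327). The calls of Psma8 and Psmg2 were lost when any 1 fiPSC library was left out (that of Psmg2 also without SSC replicate 1), and those of Psmc1 and Psmd10 in every such fit except without SSC replicate 2.

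Between the 2 kinds of iPSC no proteasome gene passed the test. In fiPSC against SSCiPSC 0 of 36 genes were called by limma, 7 had an unadjusted p under 0.05, all lower in fiPSC (11.7% of all loci in either direction), and 23 of 33948 loci (0.0678%) were called at all. The values leaned one way: 35 of the 36 genes were lower in fiPSC, by a median of -0.19 on the log2 scale, against -0.05 over named genes and -0.12 over named genes of at least 20 FPKM. The medians of both named sets were below 0 too, so more of those genes were lower than higher. Other large complexes leaned the same way, with 58 of 70 respiratory chain and ATP synthase genes and 38 of 46 ribosomal protein genes lower in fiPSC. In 11 genes all fiPSC libraries lay below all SSCiPSC libraries, where 9.23% of all loci and 14.6% of named genes did, and in none did they lie above. The lowest p belonged to Psma3, at 58.0, 55.6 and 55.2 FPKM in SSCiPSC and 38.2, 37.2 and 42.4 FPKM in fiPSC. The groups did not overlap, with a log2 fold change of -0.51 ± 0.10 and an adjusted p of 0.197 (limma). After quantile normalization the median of the 36 genes was -0.087, against -0.016 over named genes and -0.023 over named genes of at least 20 FPKM. It turned the direction of 10 of the 36 genes, and leaving out 1 library turned 2 to 5.

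**Figure D4:**
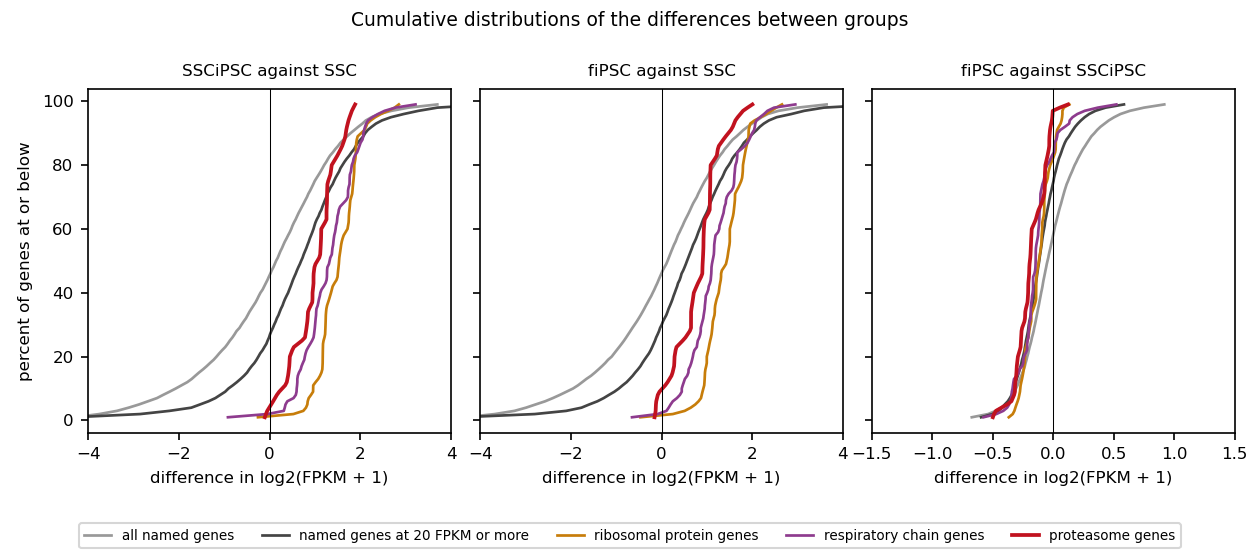
Cumulative distribution of log2 fold changes over the proteasome genes, all named genes, named genes of at least 20 FPKM, ribosomal protein genes and respiratory chain genes in the 3 comparisons (horizontal axis, difference in log2(FPKM + 1); vertical axis, percent of genes at or below it). At its median the proteasome curve lies to the right of the named genes in SSCiPSC and fiPSC against SSC (1.05 and 0.91) and to the left of the ribosomal and respiratory genes, and between the iPSC groups it lies to the left of 0 (-0.19).

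Other genes of the pathway were called in both directions. Of 31 listed beside the immunoproteasome genes, 20 had a locus; in SSCiPSC against SSC 9 were higher and 4 lower, and in fiPSC against SSC 10 were higher and 6 lower, beside 34.1% and 28.9% of named genes in SSCiPSC and 35.2% and 30.2% in fiPSC. The balance turned over after quantile normalization, to 4 higher and 9 lower in SSCiPSC and 6 higher and 10 lower in fiPSC. Ecpas, the proteasome adaptor and scaffold known to hold core and cap together, went the other way from the subunits. It stood at 34.4, 41.4 and 38.1 FPKM in SSC, 6.67, 5.71 and 7.74 FPKM in SSCiPSC and 7.60, 7.78 and 6.17 FPKM in fiPSC. The change was -2.34 ± 0.17 (limma, adjusted p = 0.000173) in SSCiPSC and was lower under all 3 scalings. The deubiquitinases of the cap rose: Uchl5 from 18.9, 23.4 and 13.4 FPKM in SSC to 46.5, 65.9 and 62.7 FPKM in SSCiPSC (1.62 ± 0.24) and Usp14 from 6.62, 7.67 and 6.70 FPKM to 15.4, 16.2 and 20.8 FPKM (1.20 ± 0.18). Pomp, the maturation protein, rose by 0.67 ± 0.14 (limma, adjusted p = 0.00866; -0.10 after quantile normalization), and the small cap subunit Sem1, at 0.36 ± 0.14, did not pass (adjusted p = 0.0748) and was called lower after quantile normalization (-0.84).

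The immunoproteasome genes were low everywhere. Psmb8 stood at 2.57, 1.48 and 3.29 FPKM in SSC, 0.431, 0.165 and 0.0746 FPKM in SSCiPSC and 0.854, 0.514 and 0.885 FPKM in fiPSC, and Psmb9 stood at 0.966 to 1.85 FPKM in SSC and 0.445 to 1.11 FPKM in the iPSC libraries. Psmb8 reached the minimum of 1 FPKM in the SSC libraries alone, so its level is a description with no test. Immune cells are known for both genes, and the mast cell and macrophage markers were in the SSC libraries only or mostly; their part in the difference was not tested. Among 6 regulators of proteasome genes with a locus none was higher in SSCiPSC and 2 were lower (28.9% of named genes were), with 4 lower after quantile normalization and 1 after median-ratio scaling; in fiPSC 1, Foxo4, was higher and 3 were lower. Nfe2l1, the factor known to raise proteasome genes when the proteasome is inhibited, stood at 41.2, 44.9 and 39.5 FPKM in SSC and 34.2, 41.0 and 41.2 FPKM in SSCiPSC (-0.11 ± 0.14, adjusted p = 0.538; called lower after quantile normalization at -0.62, adjusted p = 0.00907). Stat3 fell from 59.2, 60.5 and 61.9 FPKM to 24.8, 29.4 and 30.9 FPKM and Nfe2l2 from 19.2, 13.2 and 21.3 FPKM to 7.56, 11.0 and 9.96 FPKM, with adjusted p of 0.000917 and 0.0265 (limma); Nfe2l2 missed the threshold after median-ratio scaling (adjusted p = 0.0601).

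Ubiquitin and shuttle genes gave 6 higher and 1 lower of 9 tested in SSCiPSC, where 34.1% of named genes were higher and 28.9% lower. After quantile normalization 2 were higher and 3 lower, with the median falling from 0.78 to 0.04 on the log2 scale. The shuttle factor Ubqln4 rose from 17.5, 16.9 and 14.2 FPKM in SSC to 73.6, 112 and 81.0 FPKM in SSCiPSC and 77.7, 71.4 and 88.3 FPKM in fiPSC, by 2.36 ± 0.19 in SSCiPSC (limma, adjusted p = 0.000238), under every scaling tried. Uba1, the ubiquitin-activating enzyme, and the shuttle factor Rad23b were called higher, by 0.61 and 0.80, but turned to -0.56 and -0.40 after quantile normalization. Zfand5, a factor that activates the proteasome in muscle atrophy, fell from 73.0, 60.7 and 73.4 FPKM in SSC to 28.1, 31.2 and 39.7 FPKM in SSCiPSC, without overlap (-1.05 ± 0.17, adjusted p = 0.00271).

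**Figure D5:**
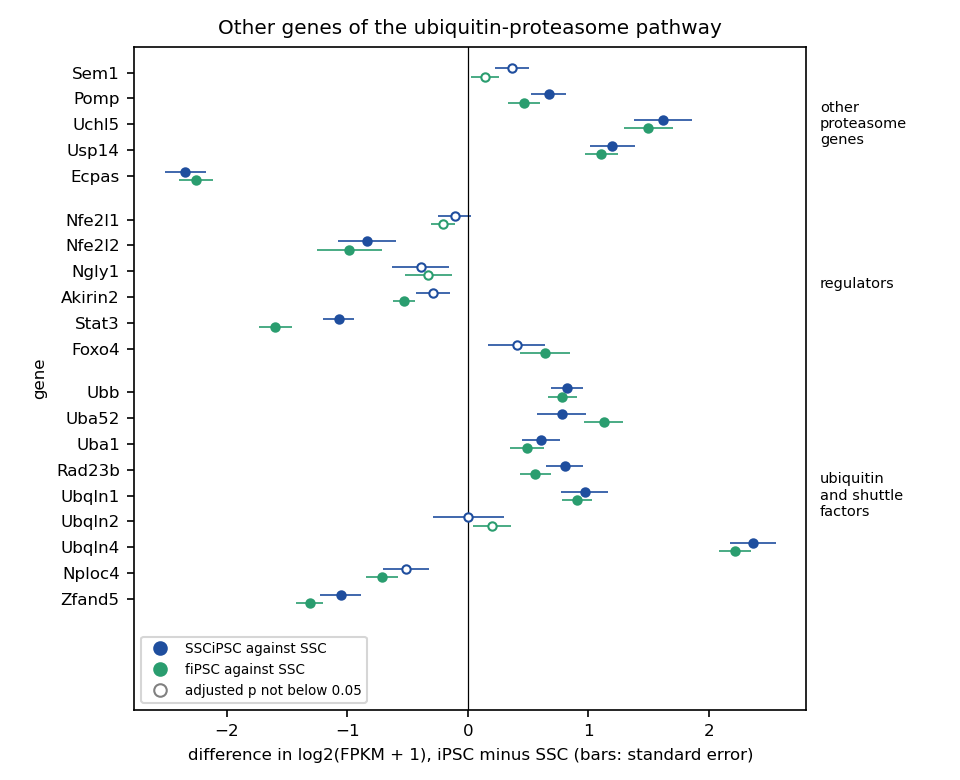
Log2 fold change, with its standard error, of the pathway genes outside the symbol rule, without Psmb8 and Psmb9, in SSCiPSC against SSC and fiPSC against SSC on the log2(FPKM + 1) scale, grouped by list, with open points for genes whose adjusted p was not below 0.05. Ecpas lies farthest to the left, at -2.34 in SSCiPSC, and Ubqln4 farthest to the right, at 2.36.

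Other large complexes were higher in SSCiPSC as well. Of 46 cytosolic ribosomal protein genes tested, 43 were higher in SSCiPSC and 1 was lower, with a median log2 fold change of 1.53; after quantile normalization 36 were higher and 1 lower, with a median of 0.98. Of 70 respiratory chain and ATP synthase genes, 61 were higher and 1 was lower, with a median of 1.32; after quantile normalization 37 were higher and 6 lower, with a median of 0.85. Among named genes 34.1% were higher and 28.9% lower as deposited, and 27.6% and 32.0% after quantile normalization. Both medians were above the 1.05 of the proteasome genes and above the 0.38 of theirs after quantile normalization.

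Promoter sequences from RefSeq (GRCm38.p6), each running from 250 bases before the start of transcription to 50 after it, were read for 40 of the 48 genes and searched on both strands for 5 motifs, which can overlap each other. TGACNNNGC, the core of the antioxidant response element bound by Nfe2l1 and Nfe2l2, was in 6 of 40 proteasome promoters and in 12.4% of all 32851 promoters. CCGGAAG, an ETS factor site, was in 15 of 40 and in 8.86% of all, CCAAT in 14 of 40 and 37.4%, CACGTG in 4 of 40 and 7.15%, and AAGATGGCG, a YY1 site, in 2 of 40 and 1.4%. The 6 genes with TGACNNNGC were Psmb5, Psmb6, Psmc6, Psmd12 and Psme4, which were called higher in SSCiPSC, and Psmd9, which has a partial locus and did not pass. The promoters of the 3 called genes whose match lies closest to the start are shown, from 170 bases before it to 30 after it (Psmb5 chr14:54617966-54618165, minus strand; Psmb6 chr11:70525187-70525386 and Psme4 chr11:30771605-30771804, plus strand), with matches to TGACNNNGC and CCGGAAG on either strand in capitals.
Psmb5: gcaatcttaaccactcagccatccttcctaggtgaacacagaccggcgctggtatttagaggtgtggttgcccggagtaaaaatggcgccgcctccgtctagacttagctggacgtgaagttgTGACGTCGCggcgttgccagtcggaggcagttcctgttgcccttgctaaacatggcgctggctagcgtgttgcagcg
Psmb6: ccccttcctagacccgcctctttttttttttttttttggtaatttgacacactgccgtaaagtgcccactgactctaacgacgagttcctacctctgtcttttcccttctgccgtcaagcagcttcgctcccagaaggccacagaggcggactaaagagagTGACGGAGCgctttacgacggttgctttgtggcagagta
Psme4: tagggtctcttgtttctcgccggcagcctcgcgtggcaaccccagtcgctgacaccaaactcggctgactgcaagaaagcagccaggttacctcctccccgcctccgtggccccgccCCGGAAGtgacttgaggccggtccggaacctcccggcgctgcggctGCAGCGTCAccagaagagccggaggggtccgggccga
The TGACNNNGC match begins 47 bases before the start in Psmb5, 9 before it in Psmb6 and 7 before it in Psme4, where CCGGAAG lies further upstream. A match is a description of these letters in this window and was not tied to binding.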

How the data were processed

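RNA from 9 libraries was sequenced with a stranded mRNA kit; the labels add a depletion of ribosomal RNA, which the methods of the study do not mention. The authors deposited a table of FPKM per locus and library, made, per the submitters' processing notes, with Trimmomatic 0.32, TopHat2 2.0.9, Bowtie2 2.1.0, Cufflinks 2.2.1 and Cuffdiff. The notes name build mm9, but 92.8% of the stranded loci overlapped a same-strand protein-coding gene of GRCm38, against 38.3 and 37.9% after a shift, so GRCm38 was used. A summary file of whole numbers was not used. Loci were tied to genes by position, with at least 50% reciprocal overlap, and the locus of the highest mean was kept. Psma3 and Psma5 had 7 such loci each, Psmb3 had 5, Psmg2 had 3 and Psma4 had 2, so their values may cover only part of the gene's reads. A further tier of partial loci was added after the data were seen. Loci that reached 1 FPKM in 3 or more of the 6 libraries were tested on log2(FPKM + 1), which understates changes of low genes, with limma 3.58.1 (R 4.3.3; lmFit, eBayes with trend) and Benjamini-Hochberg adjustment over all loci at 0.05. Errors are standard errors from the same fits. Depth was read from the steps of low FPKM values. Copies were found with BLAST 2.17.0, coding sequences were aligned with Biopython 1.88, and the limma fit was tested on simulated data with few changed loci, in which the larger changes were mostly called and the smallest ones tried were not called in the comparisons with SSC and only partly called between the iPSC groups.

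Values in every library are given for the most abundant and the most changed gene of each role, for genes of a fixed list and for every proteasome gene tested that did not pass in SSCiPSC against SSC; the rest are given by range and count. The members and lists were chosen with earlier results of these data known. Alternatives were a pseudocount of 0.1, no filter, a minimum mean of 5 FPKM, median-ratio scaling, quantile normalization, no trend, all 9 libraries in one fit, 1 locus per named gene, an overlap of at least 80%, a replicate block and leaving out each library.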

Additional observations from a re-analysis of the deposited data

How the results depend on the processing

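The pseudocount, filter and trend choices, a fit of all 9 libraries and 1 locus per named gene gave 27 to 29 higher genes in SSCiPSC against SSC and 24 to 28 in fiPSC against SSC, and an overlap of at least 80%, which left 27 genes, gave 22 and 20. After quantile normalization the count of higher genes was 15 in SSCiPSC against SSC and 13 in fiPSC against SSC, that of lower genes 5 and 7, and the medians 0.38, 0.24 and, in fiPSC against SSCiPSC, -0.087; median-ratio scaling gave medians of 1.26 and 1.07. The cause was not tested. Quantile normalization reversed Psmb1 (-0.58), Psmb6 (-0.32), Psmb7 (-0.26), Psmd2 (-0.99), Psmd4 (-0.55) and Psme3 (-0.64) in SSCiPSC against SSC, and Psma4 (-0.17), Psmb1 (-0.66), Psmb6 (-0.26), Psmb7 (-0.33), Psmc1 (-0.13), Psmc6 (-0.041), Psmd2 (-0.96), Psmd4 (-0.58) and Psme2 (0.033) in fiPSC against SSC. Median-ratio scaling reversed Psmb2 (0.15) and Psme2b (0.071) in SSCiPSC and Psmb2 (0.042), Psme2 (0.040), Psme2b (0.0038) and Psme3 (0.049) in fiPSC, none of which passed in the comparison as deposited. Leaving out 1 library at a time gave 25 to 28 higher genes in SSCiPSC against SSC (medians 0.99 to 1.14), 22 to 29 in fiPSC against SSC (medians 0.812 to 0.996) and 0 between the iPSC groups (medians -0.24 to -0.12), with reversals only in genes that did not pass, whose fold changes ranged from -0.080 to 0.19 (Psme3), -0.45 to 0.060 (Psme2b) and -0.11 to 0.025 (Psmb2) in SSCiPSC and from -0.067 to 0.20 (Psmd2) in fiPSC, where Psma5 (-0.0094) and Psme2 (up to 0.18) also turned. A fit that leaves a group with 2 libraries assumes that they vary as the others do. With the replicate number as a block 28 and 24 genes were higher; same-numbered libraries did not deviate together (correlations of -0.24 to 0.02), so the numbers were not taken as pairs. Counting partial loci as well gave 32 and 30 higher genes, and leaving out genes with a copy that has a locus 24 and 23. The shallow SSC libraries limit the low genes most, where 1 fragment per kilobase is worth 0.216 to 0.721 FPKM in SSC and 0.0571 to 0.0758 FPKM in iPSC.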

Other observations

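The order of the libraries within a group was counted over the 36 proteasome genes. In SSC, 28 of 36 were highest in replicate 2, where 48.6% of named genes of at least 10 FPKM were, and in fiPSC 25 of 36 were highest in replicate 3 (46.4% of such named genes) and 27 lowest in replicate 2 (50.2%). In SSCiPSC 20 were highest in replicate 2 (49.7%) and 15 in replicate 1 (31.0%). Psmc6, Psme2b and Psme1, picked after their values were seen, were highest in replicate 1 of SSCiPSC, at 436, 88.9 and 85.7 FPKM, and in replicate 2 of fiPSC, at 308, 66.0 and 77.8 FPKM. These values were not tested.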
